A study of Mus musculus with 20 samples.

Results

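A set of 35 genes that act in mitosis was followed in 20 mouse kidney tumours. The set was given as a list of gene names, and all 35 were found among the 34234 genes of the deposited table. The tumours came from MSRT1, a cell line labelled as renal medullary carcinoma, so a single line stands for the disease in every group. The 4 groups of 5 tumours were GYY_PD1 (GYY4137 with an antibody against PD1), GYY_IgG (GYY4137 with control IgG), Veh_PD1 (vehicle with the PD1 antibody) and Veh_IgG (vehicle with control IgG). GYY4137 is a compound that releases hydrogen sulfide slowly, and PD1 is an inhibitory receptor of T cells. The labels used here give no strain, age, sex, dose or time for the mice.

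Mitosis begins when cyclin B and its kinase CDK1 become active, passes through a checkpoint that waits until every chromosome is held by the spindle, and ends when the anaphase promoting complex marks cyclin B and securin for destruction and the cell divides. The genes for this machinery are transcribed late in the cell cycle, under the MuvB complex with B-MYB and FOXM1, and are silent in resting cells. Their RNA is commonly read as a measure of how many cells are cycling, and Mki67 and Top2a are widely used markers of proliferation. In bulk RNA, fewer dividing cells and less RNA per dividing cell cannot be told apart, and neither can dividing tumour cells and dividing host cells.

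The control region of many such genes holds a CHR element, the site at which MuvB is known to bind, and CCAAT boxes, at which NF-Y is known to bind. RefSeq promoters on GRCm38.p6, from 250 bases before to 50 bases after the start of transcription, were matched for 30 of the 35 genes. No entry was matched for Ccna2, Aurkb, Incenp, Tpx2 or Kif20a. The letters TTTGAA or TTCGAA, searched on both strands as CHR matches, were in 23 of the 30 promoters (76.7%), against 13.4% of the 9219 matched promoters of all genes tested and 19.4% of all 27025 promoters in the table. CCAAT, also on both strands, was in 23 of 30 (76.7%), against 38.8% and 37.8%. Both were in 20 of 30 (66.7%), against 5.61% and 7.57%, and the matches overlapped each other in 1 of the 30. The promoters of 109 other mitosis and cell cycle genes held a CHR match in 42.2% and CCAAT in 60.6%. A match describes the letters only, not a bound site.

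The promoters of 5 genes that had the highest RNA level of their role in the list and held a CHR match are shown. They share the CHR letters by this choice, and not all of them hold CCAAT. Each runs 5′ to 3′ on the strand of its gene, with CHR and CCAAT matches in capitals. They lie at chr2:164769679-164769978 on the plus strand (Ube2c), and on the minus strand at chr11:99024140-99024439 (Top2a), chr15:99651607-99651906 (Racgap1), chr17:71526808-71527107 (Ndc80) and chr2:127831810-127832109 (Bub1).
Ube2c: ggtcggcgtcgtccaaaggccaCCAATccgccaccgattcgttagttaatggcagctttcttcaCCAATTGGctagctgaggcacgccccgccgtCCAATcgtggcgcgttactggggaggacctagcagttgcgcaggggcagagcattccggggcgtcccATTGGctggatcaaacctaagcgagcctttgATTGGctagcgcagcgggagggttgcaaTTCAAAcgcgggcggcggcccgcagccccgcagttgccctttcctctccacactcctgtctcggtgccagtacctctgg
Top2a: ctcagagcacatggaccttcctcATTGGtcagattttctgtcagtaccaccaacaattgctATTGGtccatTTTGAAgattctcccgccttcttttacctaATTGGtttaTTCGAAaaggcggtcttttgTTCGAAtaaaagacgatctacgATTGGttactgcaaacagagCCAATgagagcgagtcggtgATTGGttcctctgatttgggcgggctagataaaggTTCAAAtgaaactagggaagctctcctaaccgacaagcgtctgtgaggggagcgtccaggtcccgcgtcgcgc
Racgap1: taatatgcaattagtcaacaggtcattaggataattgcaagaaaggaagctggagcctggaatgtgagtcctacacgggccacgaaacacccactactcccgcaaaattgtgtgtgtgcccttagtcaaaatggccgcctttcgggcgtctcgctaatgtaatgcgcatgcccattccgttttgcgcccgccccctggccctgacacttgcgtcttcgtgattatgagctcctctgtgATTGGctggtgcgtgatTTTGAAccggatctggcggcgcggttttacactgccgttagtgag
Ndc80: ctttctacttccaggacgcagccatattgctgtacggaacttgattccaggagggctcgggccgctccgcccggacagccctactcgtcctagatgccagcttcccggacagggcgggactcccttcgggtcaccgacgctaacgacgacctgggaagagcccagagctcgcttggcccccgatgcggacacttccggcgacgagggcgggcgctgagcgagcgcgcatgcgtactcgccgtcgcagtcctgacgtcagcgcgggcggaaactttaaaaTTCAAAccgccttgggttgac
Bub1: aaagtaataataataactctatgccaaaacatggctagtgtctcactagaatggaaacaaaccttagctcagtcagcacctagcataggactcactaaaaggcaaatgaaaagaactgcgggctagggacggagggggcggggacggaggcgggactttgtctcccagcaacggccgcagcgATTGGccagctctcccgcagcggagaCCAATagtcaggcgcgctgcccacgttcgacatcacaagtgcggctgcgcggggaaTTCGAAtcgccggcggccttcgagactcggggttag

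In the Top2a promoter, 4 CHR and 6 CCAAT matches lay in the 250 bases before the start, with the nearest CHR match beginning at position -23. Ube2c had 1 CHR match at position -29 and 6 CCAAT matches, a pair of which share letters in the run CCAATTGG. In Racgap1 the CHR match began at position 6, in Bub1 at position 15 and in Ndc80 at position 30, that is, after the annotated start, and Ndc80 had no CCAAT match. Of the other leading genes, Birc5 had neither match in this window. The 7 promoters without a CHR match were those of Birc5, Ccnb1, Cenpe, Mad2l1, Nek2, Nuf2 and Nusap1, of which Ccnb1, Cenpe and Nek2 held CCAAT.

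Levels are given as rescaled TPM, the deposited TPM (the share of a gene among all transcripts) divided by the sum over nuclear protein-coding genes and set to the same sum in every library. This step took out a large share of transcripts from 13 gene models that resemble major satellite, the tandem repeat of mouse centromeric DNA. Their share of TPM ran from 25.8% to 83.4% in GYY_PD1, from 5.86% to 54.9% in GYY_IgG, from 1.63% to 59.6% in Veh_PD1 and from 3.53% to 13.3% in Veh_IgG. All GYY_PD1 libraries were over 20% and all Veh_IgG libraries under it, so this share and the comparison of these groups cannot be told apart. A pair of GYY_PD1 libraries stood apart: replicate 1, whose median Spearman correlation with the others over genes was 0.426, and replicate 4, with 0.71 and only 2.94% of TPM on nuclear protein-coding genes, while the other 18 had at least 0.769. Results are given with all 20 libraries and with the 18 that remain without these. Smarcb1, the chromatin remodelling subunit typically lost in renal medullary carcinoma, was at 29.3 to 108 rescaled TPM in all 20 tumours, which also hold host cells. The depth of the libraries is unknown, because TPM keep no read number.

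The mitosis genes were abundant and were high or low in the same tumours. All 35 reached the filter of 5 rescaled TPM in at least 5 libraries, as did 11706 of 18703 nuclear protein-coding genes. TPM are per transcript length, so levels can be set between genes. Over the 18 libraries the means ran from 12.7 rescaled TPM for Cenpf to 178 for Ube2c. The mean of the 35 on the log2(rescaled TPM + 1) scale was 3.74, 5.56, 5.51, 5.37 and 5.90 in GYY_PD1, 6.32, 6.12, 5.67, 5.77 and 6.14 in GYY_IgG, 5.38, 5.82, 5.91, 5.68 and 5.31 in Veh_PD1 and 5.96, 5.39, 5.78, 5.88 and 6.17 in Veh_IgG (replicates 1 to 5 in each). The group means of this log2 value were 5.22 ± 0.85 in GYY_PD1, 6.005 ± 0.272 in GYY_IgG, 5.62 ± 0.27 in Veh_PD1 and 5.84 ± 0.29 in Veh_IgG (SD, n = 5 each), and that of GYY_PD1 was 5.66 ± 0.21 without replicates 1 and 4 (n = 3). The ranges of the 4 groups overlapped.

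Whole tumours stood out more than groups did. In GYY_IgG replicates 1, 2 and 5 and in Veh_IgG replicate 5, each of the 35 genes was above its own median over the 20 libraries, and GYY_IgG replicate 1 held the highest value for 21 of them. In Veh_PD1 replicate 5 none was above its median, and in Veh_PD1 replicate 1, Veh_IgG replicate 2 and GYY_PD1 replicate 2 only 2 were. GYY_PD1 replicate 1 held the lowest value of all libraries for 30 of the 35, with Birc5, Plk1 and Nuf2 listed at 0. The same library held the highest value of all 20 for Ccna2, Kif4 and Kif20a (305, 44.9 and 112 rescaled TPM), so within it the genes were far out of their usual proportions. Actb, a gene of all cells, was also low there, at 1154 rescaled TPM against 3711 to 9581 in the other libraries. Low values were not limited to these genes. The median over all genes tested was 3.78 on the log2(rescaled TPM + 1) scale in that library, against 5.05 to 5.24 in the others. The mean of the 35 minus this median was -0.04 there, and 0.19 in Veh_PD1 replicate 5, the next lowest.

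**Figure D1:**
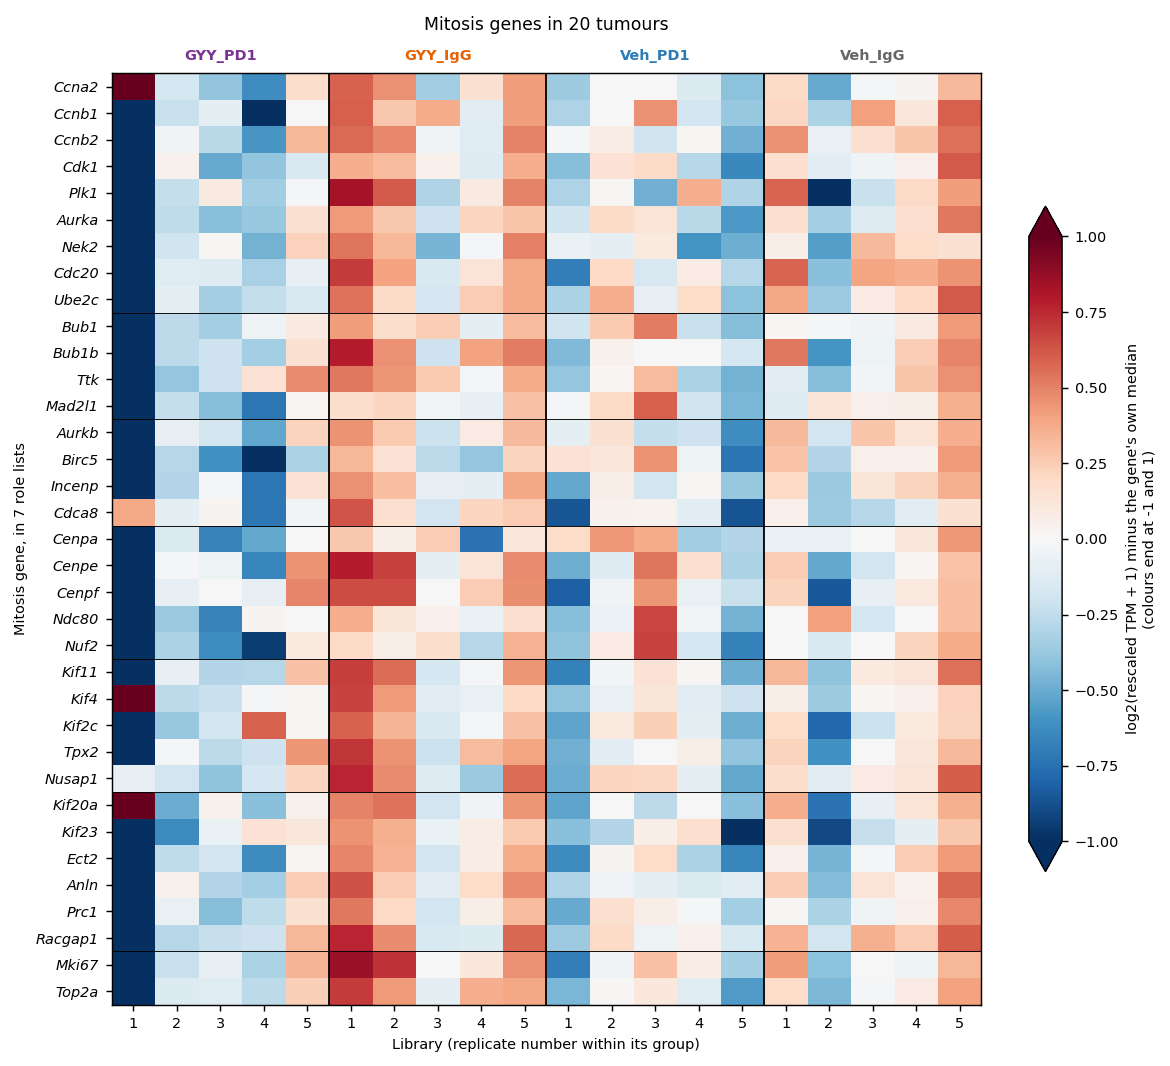
Level of each of the 35 mitosis genes (rows, grouped by role) in each of the 20 tumours (columns, by group and replicate), as log2(rescaled TPM + 1) minus the gene's own median. GYY_IgG replicates 1, 2 and 5 and Veh_IgG replicate 5 are above the median for all 35 genes and GYY_PD1 replicate 1 is lowest for 30, while other columns are mixed, such as GYY_IgG replicate 4 with 17 genes above the median and Veh_IgG replicate 3 with 15. The median over all genes tested is also lowest in GYY_PD1 replicate 1.

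Among the cyclins, the mitotic kinases and the factors that drive exit from mitosis, Ube2c, the ubiquitin conjugating enzyme of the anaphase promoting complex, was highest. Its level in replicates 1 to 5 was 53.3, 156, 131, 140.5 and 148 rescaled TPM in GYY_PD1, 242, 189, 147, 198 and 216 in GYY_IgG, 133, 213, 157, 189 and 125 in Veh_PD1 and 217, 129, 175, 190.4 and 254 in Veh_IgG. Values of all groups overlapped, and the lowest was GYY_PD1 replicate 1. Ccnb1, the cyclin B that activates CDK1, had 10.5, 39.1, 42.9, 16.5 and 46.1 rescaled TPM in GYY_PD1, 69.8, 55.3, 59.5, 42.5 and 61.5 in GYY_IgG, 36.9, 45.6, 63.2, 39.95 and 35.1 in Veh_PD1 and 53.00, 36.7, 61.2, 49.8 and 69.8 in Veh_IgG. GYY_PD1 replicates 1 and 4 were the lowest of the 20, and the other GYY_PD1 values were within the ranges of Veh_PD1 and Veh_IgG. Ccnb2, a second B-type cyclin, had 15.9, 64.6, 54.7, 44.02 and 83.8 rescaled TPM in GYY_PD1, 98.8, 92.6, 64.5, 60.7 and 93.9 in GYY_IgG, 65.5, 69.9, 57.6, 66.99 and 47.3 in Veh_PD1 and 91.4, 62.7, 74.1, 80.3 and 97.7 in Veh_IgG. Cdk1, Plk1, Aurka, Nek2 and Cdc20, which are the mitotic kinases and the activator of the anaphase promoting complex, had means over the 18 libraries from 28.8 (Nek2) to 135 rescaled TPM (Cdk1).

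The spindle checkpoint holds back anaphase until the chromosomes are attached. Bub1, a checkpoint kinase, had 5.47, 38.9, 36.9, 45.3 and 50.02 rescaled TPM in GYY_PD1, 62.97, 53.05, 55.6, 43.8 and 58.6 in GYY_IgG, 40.8, 56.4, 67.3, 40.1 and 34.6 in Veh_PD1 and 47.5, 46.2, 45.7, 50.01 and 63.1 in Veh_IgG. Bub1b, which encodes the checkpoint protein BubR1, had 19.4, 35.2, 36.6, 33.2 and 47.1 rescaled TPM in GYY_PD1, 73.5, 58.5, 36.5, 56.2 and 60.7 in GYY_IgG, 30.9, 43.7, 42.5, 42.1 and 37.4 in Veh_PD1 and 61.5, 27.8, 40.7, 50.3 and 59.8 in Veh_IgG. Mad2l1, which encodes the checkpoint protein MAD2, had 9.54, 39.4, 34.5, 27.98 and 47.4 rescaled TPM in GYY_PD1, 52.8, 54.5, 45.7, 44.1 and 57.7 in GYY_IgG, 46.2, 53.5, 71.2, 40.6 and 33.8 in Veh_PD1 and 42.7, 51.2, 48.5, 48.7 and 60.2 in Veh_IgG. For these genes every GYY_PD1 value was below or within the range of Veh_IgG, and for Bub1 and Mad2l1 the Veh_PD1 values spread on both sides of that range. Ttk, the checkpoint kinase MPS1, was lower in level, with a mean of 29.7 rescaled TPM over the 18 libraries.

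The chromosomal passenger complex consists of the kinase Aurora B (Aurkb), survivin (Birc5), borealin (Cdca8) and its scaffold Incenp. Birc5 had 0, 72.2, 57.6, 32.7 and 70.8 rescaled TPM in GYY_PD1, 112, 97.6, 73.5, 67.1 and 103 in GYY_IgG, 97.9, 95.4, 121, 85.3 and 52.7 in Veh_PD1 and 108, 71.9, 91.4, 91.4 and 119 in Veh_IgG. In GYY_PD1 it was listed at 0 in replicate 1, and the other 4 values were under the GYY_IgG median. Aurkb had 19.2, 38.6, 35.9, 28.2 and 48.1 rescaled TPM in GYY_PD1, 56.5, 49.5, 35.2, 43.5 and 51.7 in GYY_IgG, 38.2, 45.8, 34.6, 35.3 and 26.3 in Veh_PD1 and 51.5, 36.04, 49.9, 45.1 and 53.00 in Veh_IgG. Cdca8 had 68.2, 48.7, 53.00, 31.1 and 51.2 rescaled TPM in GYY_PD1, 81.1, 58.4, 45.5, 60.6 and 62.2 in GYY_IgG, 28.3, 53.6, 53.5, 48.3 and 28.1 in Veh_PD1 and 54.1, 40.4, 42.6, 48.3 and 57.96 in Veh_IgG. Cdca8 did not follow its partners in GYY_PD1 replicate 1, where it was the second highest value of the 20 while Birc5 was at 0 and Incenp was at 8.80 rescaled TPM.

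At the kinetochore, Ndc80 and Nuf2 form the part that grips microtubules, Cenpa is the histone of centromeres, and Cenpe and Cenpf are large outer proteins. Ndc80 had 23.9, 51.9, 42.02, 68.5 and 67.4 rescaled TPM in GYY_PD1, 86.9, 73.2, 69.6, 64.1 and 75.6 in GYY_IgG, 49.97, 64.7, 108, 66.1 and 48.3 in Veh_PD1 and 67.2, 89.7, 59.3, 67.4 and 83.1 in Veh_IgG. Cenpa had 11.4, 35.8, 24.5, 27.5 and 39.6 rescaled TPM in GYY_PD1, 47.9, 41.2, 47.5, 23.4 and 42.9 in GYY_IgG, 45.2, 53.8, 51.5, 30.9 and 32.1 in Veh_PD1 and 37.7, 37.6, 39.6, 43.02 and 53.9 in Veh_IgG. The lowest Ndc80 value was in GYY_PD1 replicate 1 and the highest in Veh_PD1 replicate 3. Cenpe had 6.22, 24.6, 24.02, 15.5 and 34.5 rescaled TPM in GYY_PD1, 43.7, 40.7, 23.4, 27.4 and 34.98 in GYY_IgG, 17.4, 22.7, 36.6, 27.99 and 19.9 in Veh_PD1 and 29.9, 17.2, 21.7, 25.3 and 30.7 in Veh_IgG. Cenpf had 2.56, 10.8, 11.5, 10.8 and 16.5 rescaled TPM in GYY_PD1, 18.7, 18.6, 11.4, 13.9 and 16.2 in GYY_IgG, 6.10, 11.2, 16.00, 10.8 and 9.69 in Veh_PD1 and 13.6, 5.95, 10.8, 12.3 and 14.4 in Veh_IgG. For both Cenpe and Cenpf, the values of GYY_IgG replicates 1, 2 and 5 were above the median of every other group.

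Of the spindle motors and microtubule binders, Tpx2, the activator of Aurora A on the spindle, was highest, with 12.7, 128, 107, 112 and 176 rescaled TPM in GYY_PD1, 213, 177, 111, 162 and 170.1 in GYY_IgG, 92.2, 119.6, 129.8, 134 and 98.03 in Veh_PD1 and 151, 84.5, 129, 140.0 and 162 in Veh_IgG. Nusap1, which bundles spindle microtubules, had 52.5, 48.8, 41.9, 49.5 and 65.01 rescaled TPM in GYY_PD1, 95.2, 77.7, 50.9, 42.9 and 82.4 in GYY_IgG, 39.3, 64.9, 64.6, 52.02 and 38.8 in Veh_PD1 and 63.03, 51.4, 59.2, 60.9 and 85.5 in Veh_IgG. In GYY_PD1 replicate 1, Nusap1 was within the range of the other 4 GYY_PD1 tumours, unlike Tpx2. The motors Kif11, Kif4 and Kif2c had means of 28.9, 18.2 and 21.6 rescaled TPM over the 18 libraries.

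Racgap1, the GTPase activating subunit of centralspindlin at the site of division, had 7.84, 103, 107, 109 and 159 rescaled TPM in GYY_PD1, 215, 175, 113, 114 and 188 in GYY_IgG, 97.4, 144, 122, 130.1 and 113 in Veh_PD1 and 160.1, 110.5, 161, 150.2 and 192 in Veh_IgG. The next most abundant genes of cytokinesis were Prc1, which crosslinks microtubules of the central spindle, and Anln, which encodes the actin binding protein anillin, with means of 111 and 93.4 rescaled TPM over the 18 libraries. Top2a, the topoisomerase that untangles chromosomes, had 30.8, 121, 122, 110.4 and 157 rescaled TPM in GYY_PD1, 217, 179, 124, 172 and 174 in GYY_IgG, 96.4, 134, 143, 122 and 89.5 in Veh_PD1 and 151, 97.04, 132, 141 and 176 in Veh_IgG. All 5 Top2a values in GYY_PD1 were below the 4 highest of GYY_IgG. Mki67, which encodes the Ki-67 protein that coats mitotic chromosomes, averaged 101 ± 21.6 rescaled TPM in the 3 GYY_PD1 tumours that remain without replicates 1 and 4 (SD, n = 3), against 137 ± 35.3 in GYY_IgG, 91.9 ± 23.3 in Veh_PD1 and 105 ± 23.4 in Veh_IgG (SD, n = 5 each).

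**Figure D2:**
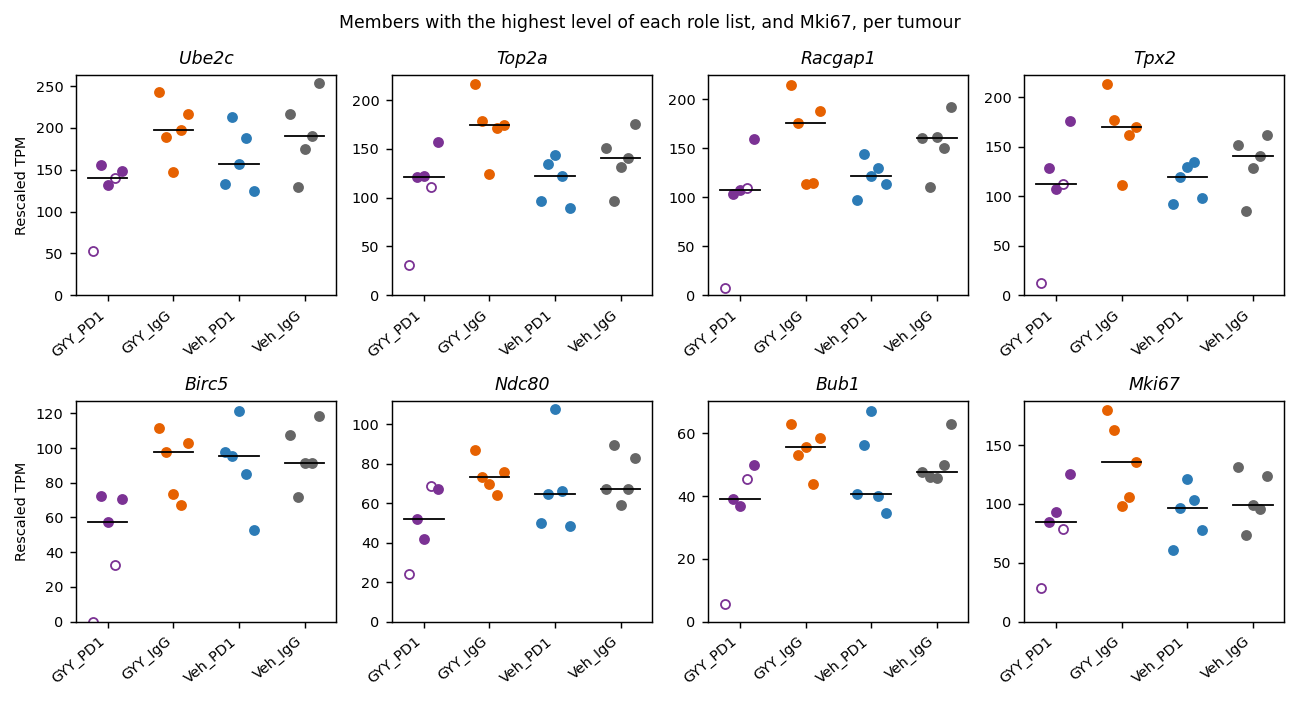
Rescaled TPM (linear axes from 0) of the gene with the highest level in each role list, and of Mki67, with 1 point per tumour and a line at the group median; open points are GYY_PD1 replicates 1 and 4. Replicate 1 is the lowest GYY_PD1 value in every panel, and the ranges of the groups overlap in every panel.

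With the PD1 antibody added to GYY4137 (GYY_PD1 against GYY_IgG), all 35 mitosis genes were lower, by a median of -0.80 on the log2(rescaled TPM + 1) scale, beside a median of -0.35 for all 11706 genes tested. No gene passed an adjusted p of 0.05 in limma, neither a mitosis gene nor any of the 11706 (0% called). At an unadjusted p under 0.05, 26 of the 35 were lower and 0 higher, against 7.42% and 2.13% of all genes. For direction alone, 76.3% of all genes were lower. Relative to the library median, 31 of the 35 were lower (55.2% of all genes), by a median of -0.50. With the 18 remaining libraries the 35 genes were still all lower, by a median of -0.37 beside -0.02 for all genes, of which 55.5% were lower. At the unadjusted threshold this left 4 of the 35 (Bub1b, Ndc80, Ube2c and Kif4), against 1.85% of all genes, and 0 past the adjusted one.

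Ccnb1, the member with the smallest p here, differed by -1.06 (SE 0.33), with an unadjusted p of 0.00393 and an adjusted p of 0.372. The exact two-sided permutation test of its 5 values against 5 gave p = 0.0238, where 0.00794 is the smallest p that groups of this size allow. The difference of Bub1b was -0.74 (SE 0.25), with an unadjusted p of 0.00798 and an adjusted p of 0.372 (exact permutation p = 0.0238), and that of Mad2l1 was -0.83 (SE 0.30), with an unadjusted p of 0.0131 and an adjusted p of 0.372 (exact permutation p = 0.0238). Without GYY_PD1 replicates 1 and 4 these differences were -0.41, -0.49 and -0.33 for Ccnb1, Bub1b and Mad2l1. For each of these 3 genes the 2 groups overlapped, and no member had every GYY_PD1 value below every GYY_IgG value, which 1.03% of all genes did. By role, the median difference with all libraries was -0.94 for the cyclins, kinases and exit factors, -0.81 for the checkpoint, -0.66 for the passenger complex, -0.70 for the kinetochore, -0.63 for motors and binders, -0.76 for cytokinesis and -0.83 for Mki67 and Top2a. Fitted to these 2 groups alone, 2 of the 35 were past the unadjusted threshold, against 0.7% of all genes. The median was -0.42 without GYY_PD1 replicate 1. The count of 26 was 18 without GYY_PD1 replicate 1, where 510 of all 11706 genes were lower at that threshold. It was 11 without GYY_IgG replicate 1, 17 without GYY_IgG replicate 2 and 15 without GYY_IgG replicate 5. The count over all genes moves with the library left out. Among libraries over 20% satellite-like share, the median was -0.48 against the 2 GYY_IgG libraries there, and -0.05 when GYY_PD1 replicates 1 and 4 were left out too.

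The combination set against tumours given vehicle and IgG (GYY_PD1 against Veh_IgG) gave lower values for 31 of the 35 genes, with a median of -0.60 beside -0.31 for all genes, of which 73.7% were lower. Relative to the library median, 30 were lower (54.7% of all genes), by a median of -0.33. On the rescaled scale Ccna2, Cdca8, Kif4 and Kif20a were the 4 that were higher, by 0.02 to 0.16 log2; for Ccna2, Kif4 and Kif20a the direction turned without GYY_PD1 replicates 1 and 4, to -0.14, -0.16 and -0.14. None passed the adjusted threshold in limma (0% of all genes did). At an unadjusted p under 0.05, 15 were lower, against 9.22% of all genes, and 0 higher, against 4.82%. In the 18 remaining libraries, 31 were lower with a median of -0.17 beside 0.01 for all genes (48.8% lower), and 2, Birc5 and Ndc80, were past the unadjusted threshold, against 3.19%. The 4 higher genes were then Cdca8, Cenpe, Cenpf and Tpx2, so the 31 lower genes were not the same in both models. This comparison shares its GYY_PD1 libraries with the one before and its Veh_IgG libraries with those that follow.

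Ccnb1 differed by -0.95 (SE 0.33), with an unadjusted p of 0.00817 and an adjusted p of 0.314 (exact permutation p = 0.0476, n = 5 each). Mad2l1 differed by -0.80 (SE 0.30), with an unadjusted p of 0.0153 and an adjusted p of 0.335 (exact permutation p = 0.0159), and Ccnb2 by -0.78 (SE 0.31), with an unadjusted p of 0.0212 and an adjusted p of 0.348 (exact permutation p = 0.0556). Without GYY_PD1 replicates 1 and 4 the differences were -0.31 for Ccnb1, -0.31 for Mad2l1 and -0.27 for Ccnb2. The largest difference with all libraries was that of Birc5, -1.92 (SE 0.77), which rests on the listed 0, and it was -0.50 (SE 0.22) without these libraries. The proliferation markers Mki67 and Top2a differed by -0.46 (SE 0.32) and -0.51 (SE 0.33) with all libraries, and by -0.04 (SE 0.24) and -0.05 (SE 0.20) without GYY_PD1 replicates 1 and 4. Tpx2, a spindle assembly factor, differed by -0.67 (SE 0.47) and 0.05 (SE 0.22), and these 3 were picked after their values were seen. Fitted to these 2 groups alone, 1 of the 35 was past the unadjusted threshold, against 1.61% of all genes. The median was -0.26 without GYY_PD1 replicate 1. The count of 15 was 8 without GYY_PD1 replicate 1, where 791 of all 11706 genes were lower at that threshold. It was 8 without Veh_IgG replicate 1 and 4 without Veh_IgG replicate 5. The count over all genes moves with the library left out, so these counts alone do not single out the mitosis genes. No member had all GYY_PD1 values below all Veh_IgG values, which 1.83% of all genes did.

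**Figure D3:**
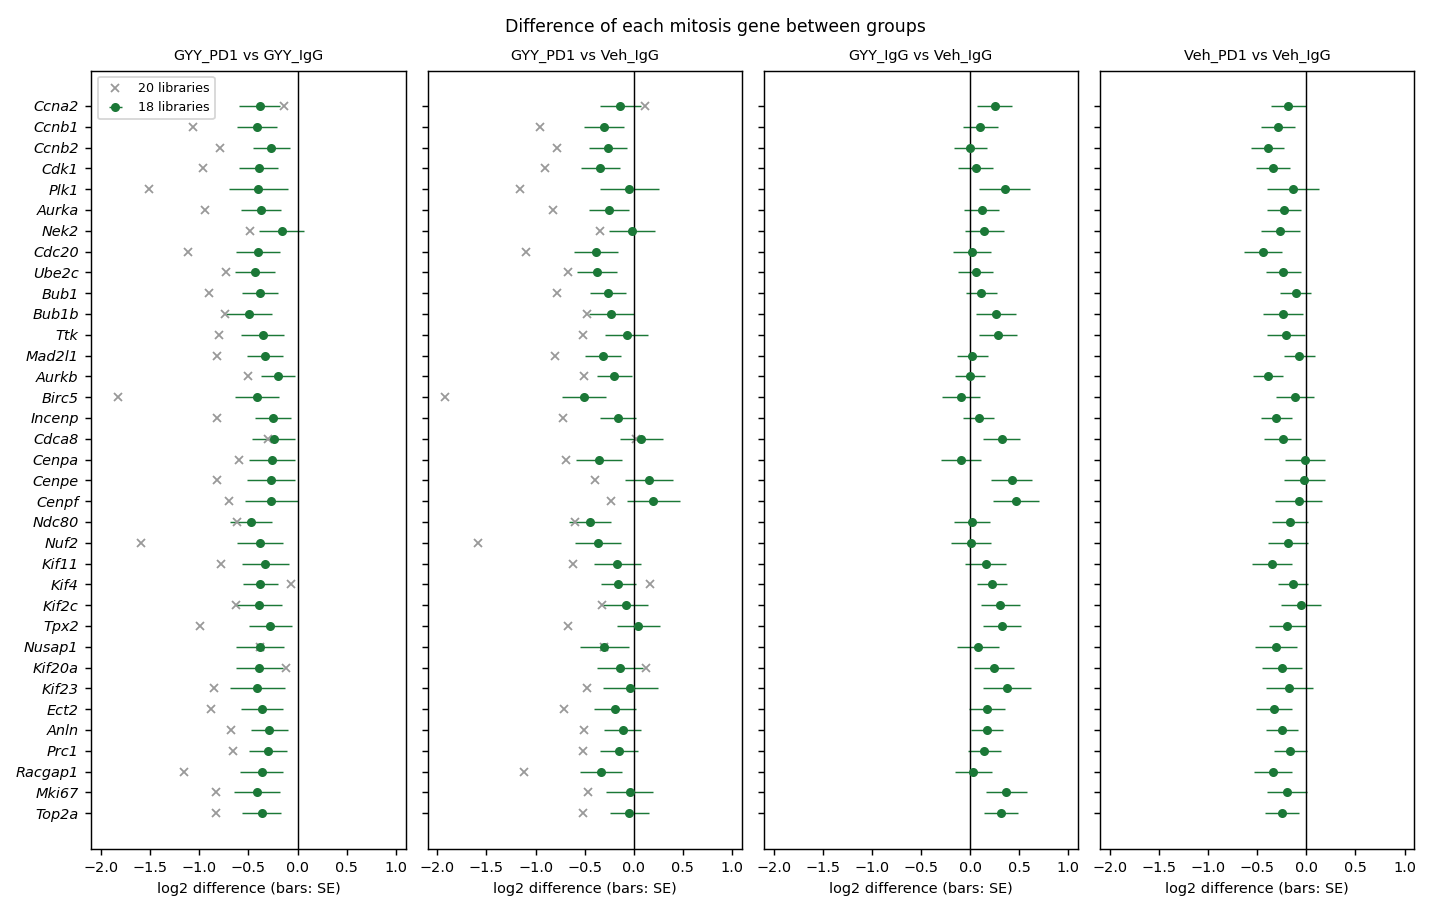
Log2 difference of each mitosis gene in 4 comparisons, from limma on log2(rescaled TPM + 1): green points with SE bars are from the 18 libraries without GYY_PD1 replicates 1 and 4, grey crosses from all 20 (shown where they differ). Against GYY_IgG all 35 green points are below 0, with a median of -0.37, and in GYY_IgG against Veh_IgG 32 are above 0.

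GYY4137 alone (GYY_IgG against Veh_IgG) came with slightly higher mitosis genes. On the rescaled scale 32 of 35 were higher, against 58.9% of all genes, with a median of 0.14 beside 0.04 for all genes, but relative to the library median 27 were higher (median 0.11; 51.7% of all genes) and on the deposited log2 TPM scale 33 were lower (median -0.29; 94.1% of all genes were lower there). None passed the adjusted threshold (0% of all genes) and 0 passed the unadjusted one, against 0.402% of all genes higher and 0.12% lower. Cenpf differed by 0.47 (SE 0.35), with an unadjusted p of 0.193 and an adjusted p of 1.00 (exact permutation p = 0.0714, n = 5 each). The difference of Cdca8 was 0.32 (SE 0.24; exact permutation p = 0.0714) and that of Cenpe 0.42 (SE 0.33; exact permutation p = 0.103). The median was 0.06 without GYY_IgG replicate 1, 0.27 without GYY_IgG replicate 3, 0.04 without Veh_IgG replicate 2 and 0.25 without Veh_IgG replicate 5.

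The GYY_IgG group was divided. Replicates 1, 2 and 5, with a satellite-like share of 5.86% to 11.1%, had every mitosis gene above its median, while replicates 3 and 4, at 54.9% and 44.1%, had 7 and 17 genes above it. Restricted to libraries under 20%, the 3 GYY_IgG tumours exceeded the 5 Veh_IgG tumours for all 35 genes (63% of all genes were higher), by a median of 0.35 beside 0.06, and 15 of the 35 were past the unadjusted threshold, against 5.99% of all genes, with 0 past the adjusted one. This restriction was chosen after the values were seen. The summed level of the 6 neutrophil markers in GYY_IgG, 261, 212, 2315, 1127 and 219.7 rescaled TPM in replicates 1 to 5, ran the other way, high in replicates 3 and 4; it was 125, 472, 467, 1835 and 80.9 in Veh_IgG, and its part in the result was not tested.

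**Figure D4:**
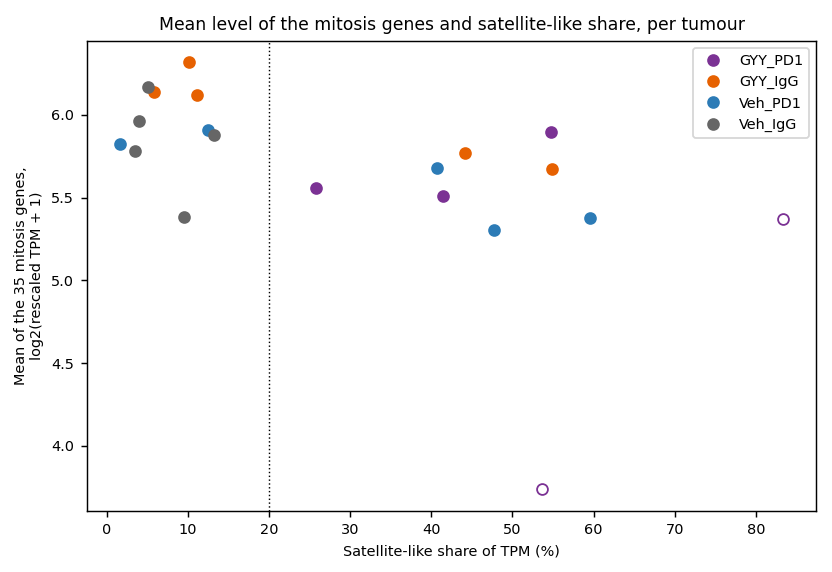
Mean of the 35 mitosis genes on the log2(rescaled TPM + 1) scale (vertical axis) against the satellite-like share of TPM (horizontal axis, %), 1 point per tumour, open points for GYY_PD1 replicates 1 and 4, dotted line at 20%. The 10 tumours under 20% come from GYY_IgG, Veh_PD1 and Veh_IgG only, and the lowest mean, 3.74, is GYY_PD1 replicate 1.

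With vehicle, the PD1 antibody (Veh_PD1 against Veh_IgG) came with lower mitosis genes: all 35 were lower, against 59.5% of all genes, by a median of -0.22 beside -0.04. Relative to the library median 33 of 35 were lower (49.4% of all genes), with a median of -0.18. None passed the adjusted or the unadjusted threshold with all libraries in the model (0% of all genes at the adjusted one, 0.273% lower and 0.495% higher at the unadjusted one). In the model without GYY_PD1 replicates 1 and 4, Aurkb, Ccnb2 and Cdc20 were past the unadjusted threshold, against 3.35% of all genes lower. The differences are the same in both models, since neither group lost a library, but the SE of Aurkb was 0.15 and that of Ccnb2 0.17 in this model. With all 20 libraries in the model, Aurkb differed by -0.39 (SE 0.22; exact permutation p = 0.0397, n = 5 each), Ccnb2 by -0.39 (SE 0.31; exact permutation p = 0.0397) and Nusap1 by -0.31 (SE 0.23; exact permutation p = 0.198). The median was -0.14 without Veh_PD1 replicate 5, -0.36 without Veh_IgG replicate 2 and -0.13 without Veh_IgG replicate 5. The 6 neutrophil markers summed to 2155, 647, 1189, 1741 and 1472 rescaled TPM in Veh_PD1, against 125, 472, 467, 1835 and 80.9 in Veh_IgG, and their part in the result was not tested. Under 20% satellite-like share, the 2 Veh_PD1 tumours there differed from the 5 of Veh_IgG by a median of 0.04 beside -0.04 for all genes, with 21 of the 35 higher (43.9% of all genes).

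Adding GYY4137 to the PD1 antibody (GYY_PD1 against Veh_PD1) gave lower values for 30 of 35 genes with all libraries, against 71.9% of all genes, with a median of -0.38 beside -0.27 for all genes. Relative to the library median 27 were lower (54.1% of all genes), by a median of -0.15. Past the unadjusted threshold were 3, Mad2l1, Cenpa and Birc5, against 6.7% of all genes lower, and none passed the adjusted one (0% of all genes). With 18 libraries, 23 of the 35 were higher, against 59.2% of all genes, and the median was 0.06 beside 0.05. Mad2l1 differed by -0.73 (SE 0.30) with all libraries and -0.24 (SE 0.18) without these. Cenpa differed by -0.68 (SE 0.28) and -0.34 (SE 0.23), and Birc5 by -1.80 (SE 0.77) and -0.39 (SE 0.22). Without GYY_PD1 replicate 1 alone, the median was 0.00. The median was -0.25 without Veh_PD1 replicate 3. The count of 3 was 1 without GYY_PD1 replicate 1, where 598 of all 11706 genes were lower at that threshold. It was 5 without GYY_PD1 replicate 2, where 1610 of all genes were. It was also 5 without GYY_PD1 replicate 3, 7 without GYY_PD1 replicate 5 and 0 without Veh_PD1 replicate 3. The count over all genes moves with the library left out, so these counts alone do not single out the mitosis genes. Fitted to these 2 groups alone, 0 members were past the threshold, against 1.11% of all genes.

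Averaged over vehicle and GYY4137, the PD1 antibody came with lower values of all 35 genes, by a median of -0.50 beside -0.20 for all genes, of which 75.7% were lower. Relative to the library median 33 were lower (54.3% of all genes), by a median of -0.33. At an unadjusted p under 0.05, 17 were lower, against 3.11% of all genes, and none passed the adjusted threshold (0% of all genes). Without GYY_PD1 replicates 1 and 4 all 35 were again lower, against 60.1% of all genes, by a median of -0.29 beside -0.03, and 18 were past the unadjusted threshold, against 3.7%. Ccnb1 differed by -0.67 (SE 0.23), with an unadjusted p of 0.00827 and an adjusted p of 0.574. Aurkb differed by -0.45 (SE 0.16) and Bub1b by -0.49 (SE 0.18). Without these libraries the differences were -0.35 for Ccnb1, -0.29 for Aurkb and -0.37 for Bub1b. The count of 17 was 23 without GYY_PD1 replicate 1, where 745 of all 11706 genes were lower at that threshold. It was 26 without GYY_PD1 replicate 5, 10 without GYY_IgG replicate 1, 9 without Veh_PD1 replicate 1, 10 without Veh_PD1 replicate 5 and 9 without Veh_IgG replicate 5. The count over all genes moves with the library left out. The antibody also went with the satellite-like share. Over 20% were 5 libraries of GYY_PD1, 3 of Veh_PD1 and 2 of GYY_IgG, and no Veh_IgG library. Under 20%, the median of Veh_PD1 against Veh_IgG was 0.04. Over 20%, that of GYY_PD1 against GYY_IgG was -0.48, and -0.05 without GYY_PD1 replicates 1 and 4. The part of this share in the PD1 average was not tested.

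Averaged over both antibodies, GYY4137 gave no common direction: 22 of 35 genes were lower with all libraries (67.1% of all genes), with a median of -0.07 beside -0.11, and 28 were higher without GYY_PD1 replicates 1 and 4 (60.6% of all genes), with a median of 0.12 beside 0.04. None passed either threshold with all 20 libraries (0% of all genes at the adjusted one, 2.7% lower and 2.77% higher at the unadjusted one). The median was 0.09 without GYY_PD1 replicate 1 and -0.18 without GYY_PD1 replicate 5. Cenpa differed by -0.38 (SE 0.20), Birc5 by -0.95 (SE 0.55) and Cdca8 by 0.29 (SE 0.17). The interaction, which asks whether the difference with the PD1 antibody depends on GYY4137, was below 0 for 32 of 35 genes (75.4% of all genes), with a median of -0.58 beside -0.31, and none passed either threshold (0% of all genes at the adjusted one, 0.863% below 0 and 0.41% above 0 at the unadjusted one). The smallest p values were those of Mad2l1 at -0.75 (SE 0.43), Cenpe at -0.80 (SE 0.47) and Ccnb1 at -0.77 (SE 0.46). Without GYY_PD1 replicates 1 and 4 the median of the interaction was -0.15 beside 0.01, and without replicate 1 alone it was -0.18.

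In order of group means, 32 of the 35 genes were highest in GYY_IgG and 3 in Veh_IgG, both with 20 and with 18 libraries. With 20 libraries 30 were lowest in GYY_PD1 and 5 in Veh_PD1, and with 18 libraries 12 were lowest in GYY_PD1 and 23 in Veh_PD1. The 35 values of a library share that library, so these counts are not 35 independent results. The order of groups was not counted over all genes. With 20 libraries, 58.9% of all genes were higher in GYY_IgG than in Veh_IgG and 76.3% were lower in GYY_PD1 than in GYY_IgG. Markers of other cells also differed in level between groups. The summed level of the T cell markers (7 of 8 on this scale, none at 0 in all libraries) was 40.3 to 93.3 rescaled TPM in GYY_PD1, 28.0 to 51.5 in GYY_IgG, 16.9 to 58.5 in Veh_PD1 and 19.3 to 29.2 in Veh_IgG, and 7 of 7 had a higher mean in GYY_PD1 than in Veh_IgG. The 8 macrophage markers summed to a median of 4129 rescaled TPM in GYY_PD1, 3736 in GYY_IgG, 3697 in Veh_PD1 and 4729 in Veh_IgG, with 927 in GYY_PD1 replicate 1. With all libraries, 0 of the 8 had a higher mean in GYY_PD1 than in GYY_IgG, and 0 than in Veh_IgG. The 6 neutrophil markers had a median sum of 689.7 rescaled TPM in GYY_PD1 (9.50 to 5815, the highest in replicate 4), 261 in GYY_IgG (212 to 2315), 1472 in Veh_PD1 (647 to 2155) and 467 in Veh_IgG (80.9 to 1835). With all libraries, which include the 5815 of replicate 4, all 6 had a higher mean in GYY_PD1 than in GYY_IgG and than in Veh_IgG. Without replicates 1 and 4 the GYY_PD1 sums were 1031, 689.7 and 341, within the ranges of GYY_IgG and Veh_IgG. Of the 6 endothelial markers, all had a higher mean in GYY_PD1 than in Veh_IgG and 4 than in GYY_IgG, while of the 6 erythroid markers 1 did in each case. The endothelial sum was 395 in GYY_PD1 replicate 3 and 50.15 to 152 in the other GYY_PD1 libraries, against 37.7 to 218.5 in Veh_IgG. The 7 kidney tubule markers summed to 15.2 to 332 over the 20 tumours, and no marker of these lists was at 0 in every library. Fibroblast markers (7) reached 2956 and adipocyte markers (6) 4420 in GYY_PD1 replicate 3, against at most 1358 and 296 in every other library. Their part in the mitosis gene levels was not tested.

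The wider machinery of mitosis and the cell cycle was followed in 8 lists of 132 further genes, all of which reached the filter, and none of which passed the adjusted threshold in any of the 8 comparisons in either direction (0% of all genes did). Beside the counts that follow stand 73.7% of all genes lower in GYY_PD1 than in Veh_IgG with all libraries, with a median of -0.31, and 48.8% without GYY_PD1 replicates 1 and 4, with a median of 0.01. Genes named from a list were picked from those with the smallest limma p in this same comparison, so their differences do not stand for the list. The other kinetochore genes were lower in GYY_PD1 than in Veh_IgG for 23 of 28 (median -0.45), and for 25 of 28 without these libraries (median -0.17). Cenpn, a subunit of the centromere network that recognises Cenpa nucleosomes, differed by -0.94 (SE 0.32) with all libraries and -0.45 (SE 0.19) without GYY_PD1 replicates 1 and 4. Pmf1, a subunit of the MIS12 complex, was at -0.70 and -0.42. Of the other checkpoint and entry genes, 15 of 16 were lower with all libraries (median -0.59) and 16 of 16 with 18 libraries (median -0.22). Among them Cdc25b, the phosphatase that activates CDK1, differed by -0.82 (SE 0.26) with all libraries and -0.42 (SE 0.14) without GYY_PD1 replicates 1 and 4, and Sgo1, which encodes shugoshin, the protector of cohesion at centromeres, by -1.11 and -0.39.

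The condensin and cohesin genes were lower for 16 of 17 with all libraries (median -0.42) and for 8 of 17 with 18 (median 0.01), with Ncaph, a condensin I subunit, at -0.67 and -0.22. The anaphase promoting complex and separase list had 17 of 18 lower (median -0.43), and 13 of 18 with 18 libraries (median -0.08); its RING subunit Anapc11 was at -0.69 and -0.36. The other spindle and cytokinesis genes had 21 of 22 lower (median -0.45), and 15 of 22 with 18 libraries (median -0.11), with the motor gene Kifc1 at -0.72 and -0.44. The list of mitotic transcription regulators held Foxm1, Mybl2 (which encodes B-MYB), the MuvB genes Lin9, Lin37, Lin52 and Lin54, and E2f4, Rbl1 and Rbl2. Of these, 8 of 9 were lower (median -0.51), and 7 of 9 with 18 libraries (median -0.09). Foxm1, which encodes the factor that gives mitotic genes their late peak, had 6.98, 22.2, 28.9, 18.99 and 33.5 rescaled TPM in GYY_PD1, 36.6, 34.5, 26.9, 33.3 and 37.00 in GYY_IgG, 23.3, 28.7, 28.7, 18.9 and 22.1 in Veh_PD1 and 29.4, 19.4, 28.8, 30.8 and 36.5 in Veh_IgG. Its difference was -0.51 (SE 0.29) with all libraries and -0.03 (SE 0.18) without GYY_PD1 replicates 1 and 4, and neither passed the adjusted threshold in limma.

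The 35 genes did not keep fixed proportions in every tumour. The ratio of Ndc80 to Plk1, a pair chosen after the values were seen, was 3.89 in Veh_PD1 replicate 3 and 4.74 in Veh_IgG replicate 2, and 1.01 to 2.25 in the other 17 libraries with Plk1 above 0. Ndc80 was 108 and 89.7 rescaled TPM in these tumours, the highest values of the 20, while Plk1, the kinase that drives spindle assembly, was 27.7 and 18.9. After each library's mean over the 35 and each gene's mean were taken out, Mad2l1 was 0.45 and 0.51 log2 above its share and Bub1 0.34 and 0.33 above it in these libraries, whereas Kif20a, the cytokinesis kinesin, was at -0.36 and -0.31. The longest annotated coding transcripts of Plk1 and Cdc20 are 55.98% and 55.6% G and C, and those of Mad2l1, Bub1 and Nuf2 are 40.1%, 41.0% and 42.3%. Not all genes low in G and C were above their share. Cenpe (43.0%) and Cenpf (43.3%) were at 0.31 and 0.25 in Veh_PD1 replicate 3, but at -0.21 and -0.52 in Veh_IgG replicate 2. Across the 35 genes, which share a library and are not independent, the Spearman correlation of this deviation with G and C content was -0.66 in Veh_PD1 replicate 3 and -0.25 in Veh_IgG replicate 2. The part of base composition in these ratios was not tested.

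**Figure D5:**
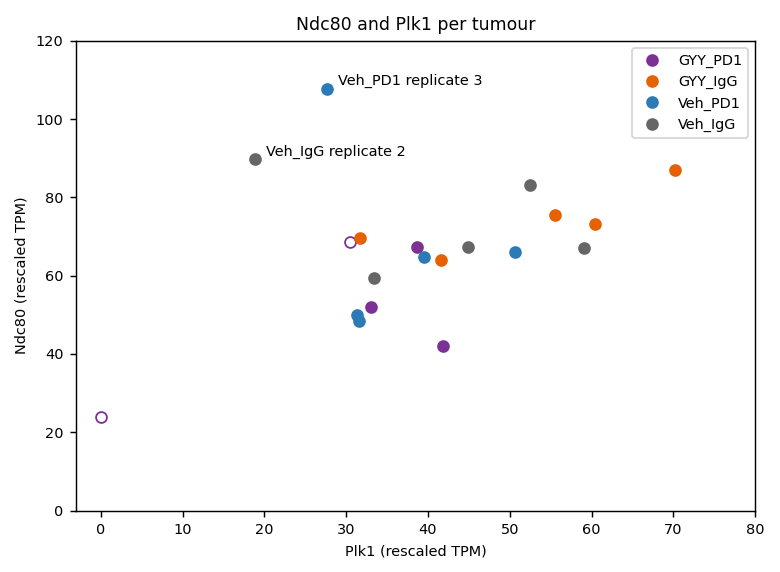
Ndc80 (vertical axis) against Plk1 (horizontal axis) in rescaled TPM, 1 point per tumour, open points for GYY_PD1 replicates 1 and 4. Veh_PD1 replicate 3 and Veh_IgG replicate 2 lie above the other tumours, with Ndc80 at 108 and 89.7.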

How the data were processed

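RNA from 20 kidney tumours, 5 mice in each of 4 groups, was measured as log2 TPM, the values the authors deposited for 34234 genes, with 0 TPM listed as -8.879. The submitters' processing notes name mm10, cutadapt, fastp, Salmon 0.14.1 and HTSeq 0.11.0, without saying which made the TPM. Depth is unknown. TPM were rescaled to 18703 nuclear protein-coding genes (GENCODE M21), without 13 satellite-like models (transcripts of 400 bases or more repeating every 225 to 240 bases at 50% identity or more, mean of 10 TPM or more) and 1134 olfactory and vomeronasal receptor genes. Genes with 5 rescaled TPM in 5 libraries (11706) were tested on log2(rescaled TPM + 1), which understates the change of low genes.

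A limma-trend model (limma 3.58.1, R 4.3.3) with 4 groups and 16 residual degrees of freedom gave 8 comparisons, Benjamini-Hochberg adjusted at 0.05. Exact two-sided permutation tests used scipy 1.17.1. P-values set a group difference against the spread between these tumours, and in limma that spread is shared by all groups in the model. The scripts were tested on simulated data. Members and lists were chosen with earlier results of these data known. Genes named from the wider lists were picked from those with the smallest p in GYY_PD1 against Veh_IgG. Values per library are given for the most abundant member of each role and the 3 members with the smallest p in each comparison; a few others are named for completeness or after their values were seen. Alternatives were the scale, pseudocount, filter, library weights, the groups in the model, a replicate block, satellite classes and leaving out libraries. The T cell marker Trac was not on the scale used.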

Additional observations from a re-analysis of the deposited data

Results flagged for a closer look

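In 72 groups of 5 values examined for named genes and for the mean of the 35, 10 held a value far from the other 4, where chance gives about 1 in 20 for independent groups. These groups share libraries and are not independent, and most of the values apart come from GYY_PD1 replicate 1. In GYY_PD1, replicate 1 lay far below the others for Ube2c (53.3 rescaled TPM), Top2a (30.8), Racgap1 (7.84), Tpx2 (12.7), Birc5 (listed at 0), Bub1 (5.47) and Cenpf (2.56), and for the mean of the 35 genes (3.74 on the log2 scale). The other values apart were Bub1 at 63.1 rescaled TPM, above the rest of Veh_IgG, in replicate 5, and Cenpa at 23.4, below the rest of GYY_IgG, in replicate 4.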

How the results depend on the processing

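No mitosis gene was called under any alternative but 1: on the deposited log2 TPM scale, without rescaling, 35 were called in GYY_PD1 against Veh_IgG and 35 in the PD1 average, beside 9635 and 8696 of 11706 genes. On that scale the median differences were -2.33 for GYY_PD1 against Veh_IgG, -2.12 against GYY_IgG, -1.25 against Veh_PD1, -1.10 for Veh_PD1 against Veh_IgG, -0.73 for the GYY average and -1.60 for the PD1 average, and Cdca8 reversed to -0.11 in GYY_IgG against Veh_IgG and -0.35 in the GYY average. Among libraries over 20% satellite-like share, without GYY_PD1 replicates 1 and 4, the median was 0.18 for GYY_PD1 against Veh_PD1 and -0.05 against GYY_IgG, and Mad2l1 reversed to 0.01 against Veh_PD1; under 20%, Nusap1 reversed to 0.04 in Veh_PD1 against Veh_IgG. The cause was not tested. With library weights, the members past the unadjusted threshold were 7 lower in GYY_PD1 than in Veh_IgG (5.43% of all genes), 33 lower than in GYY_IgG (7.59%), 2 lower than in Veh_PD1 (5.15%), 11 higher in GYY_IgG than in Veh_IgG (6.32%), 3 lower in Veh_PD1 than in Veh_IgG (4.54%), 5 higher in the GYY average (10.1%), 32 lower in the PD1 average (9.99%) and 1 below 0 in the interaction (3.22%). Leaving out 1 library gave medians of -0.75 to -0.26 for GYY_PD1 against Veh_IgG, -1.01 to -0.42 against GYY_IgG, -0.55 to 0.00 against Veh_PD1, 0.04 to 0.27 for GYY_IgG against Veh_IgG, -0.36 to -0.13 for Veh_PD1 against Veh_IgG, -0.18 to 0.09 for the GYY average, -0.60 to -0.34 for the PD1 average and -0.74 to -0.18 for the interaction, with 0 members called. Same-numbered tumours did not vary together (pair correlations -0.38 to 0.389, and 4 of 20 libraries closest to their own number). With the replicate block 0 members were called, and 1 of all 11706 genes was called in GYY_PD1 against Veh_IgG. At the unadjusted threshold 12 members were lower in GYY_PD1 than in Veh_IgG, beside 1072 of all genes, and 22 lower than in GYY_IgG, beside 845 of all genes. Of the values for named genes, 743 kept direction and side of the threshold, 6 newly passed it and 4 reversed; of the summary values, 492 kept and 10 moved. Depth and its limits are unknown, since TPM keep no counts.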

Other observations

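Genes that act before mitosis were followed in a pair of lists. Those named were likewise picked for a small limma p in GYY_PD1 against Veh_IgG, so their differences do not stand for the lists. In the list of G1 cyclins, their kinases and E2Fs, 10 of 14 genes were lower in GYY_PD1 than in Veh_IgG (median log2 difference -0.25; 73.7% of all genes were lower), and 11 of 14 without GYY_PD1 replicates 1 and 4 (median -0.11; 48.8% of all genes), with 0 past the adjusted threshold. Ccnd2, cyclin D2, had 5.26, 10.03, 47.6, 13.8 and 7.75 rescaled TPM in GYY_PD1, 8.65, 16.5, 8.60, 21.02 and 10.8 in GYY_IgG, 15.1, 12.1, 9.11, 19.5 and 3.81 in Veh_PD1 and 7.39, 1.41, 7.30, 12.9 and 4.45 in Veh_IgG, a log2 difference of 1.02 (SE 0.52) with all libraries and 1.34 (SE 0.57) without GYY_PD1 replicates 1 and 4. Its highest value, in GYY_PD1 replicate 3, was in the tumour with the highest fibroblast and adipocyte markers. Rb1, which restrains entry into S phase, had 129, 37.5, 39.9, 29.7 and 40.5 rescaled TPM in GYY_PD1, 31.7, 36.6, 29.3, 30.3 and 30.4 in GYY_IgG, 24.2, 24.9, 29.7, 30.2 and 26.1 in Veh_PD1 and 27.3, 35.8, 23.7, 37.5 and 28.2 in Veh_IgG. Its log2 difference was 0.64 (SE 0.28) with all libraries and 0.37 (SE 0.14) without GYY_PD1 replicates 1 and 4, and neither adjusted p passed in limma (0.348 and 0.503).

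Of the CDK inhibitors, 6 of 8 were lower in GYY_PD1 than in Veh_IgG with all libraries (median -0.58; 73.7% of all genes) and without GYY_PD1 replicates 1 and 4 (median -0.18; 48.8% of all genes), again with 0 past the adjusted threshold. Cdkn2a, which encodes p16 and p19ARF, was the most abundant of those named, with 46.5, 231, 137, 169 and 233 rescaled TPM in GYY_PD1, 299.7, 245, 249, 185 and 247 in GYY_IgG, 257, 246, 167, 227 and 221 in Veh_PD1 and 300.2, 239, 248, 216 and 341 in Veh_IgG. Its log2 difference was -0.89 (SE 0.33) with all libraries and -0.44 (SE 0.20) without GYY_PD1 replicates 1 and 4. Cdkn1c, which encodes p57, was at 0.435 to 19.4 rescaled TPM over the 20 tumours, with the highest value in GYY_PD1 replicate 4. Its log2 difference was 1.04 (SE 0.61) with all libraries and 0.71 (SE 0.69) without GYY_PD1 replicates 1 and 4, with adjusted p of 0.35 and 0.86 in limma.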
